A study of Mus musculus with 24 samples.

Results

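Transcripts of 9 genes of transforming growth factor beta (TGF-beta) signalling were measured in mouse kidney: the ligand genes Tgfb1, Tgfb2 and Tgfb3, the receptor genes Tgfbr1 and Tgfbr2, the signal transducer gene Smad3, the inhibitor gene Smad7 and the target genes Ctgf and Tgfbi. They were chosen by gene symbol, and all 9 were found among the 28450 features of the table. The RNA came from kidneys of C57BL/6 mice in 4 groups of 6 libraries, 24 in all. KO-Gly kidneys came from Nlrp3 knockout mice (genotype NLPR3-/- in the labels) given glyoxylate (Gly), a precursor of oxalate, at 75 mg/kg per day. WT-Gly kidneys came from wild-type mice given the same dose, KO-Ctrl kidneys from knockout mice given saline, and WT-Ctrl kidneys from wild-type mice given saline. Every mouse had intraperitoneal injections of 200 µl over days 1 to 7, and kidneys were taken after 7 days. The series' title names the condition studied as calcium oxalate nephrocalcinosis, that is, crystal deposits in the kidney. The labels give neither the age nor the sex of the mice, nor the construction of the knockout allele, nor how many mice gave each library, so a p-value here speaks of how far these libraries scatter, which may be technical scatter. Levels are in FPKM, which divides reads by library size and by the length of the transcript, so levels can be compared between genes per length.

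TGF-beta ligands are secreted in a latent form, bound to their own propeptide and to latency proteins of the matrix, and are released by integrins or proteases. A released ligand binds the type II receptor (Tgfbr2), which activates the type I receptor (Tgfbr1), and this phosphorylates Smad2 and Smad3, which enter the nucleus with Smad4. In the kidney the pathway is known as a driver of matrix production by fibroblasts and of fibrosis, and Smad7 is one of its feedback inhibitors.

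The libraries were described before the genes. Summed FPKM ranged from 439749 to 539018 over the 24 libraries; read depth is unknown, and no read counts could be recovered from the values. Proximal tubule markers summed to between 1709 and 4235 FPKM over the 24 libraries, podocyte markers to between 34.0 and 111 FPKM, and distal nephron markers to between 1804 and 3090 FPKM. Nlrp3 (ENSMUSG00000032691), the targeted gene, averaged 0.129 ± 0.00910 FPKM in KO-Gly kidneys and 0.572 ± 0.224 FPKM in WT-Gly kidneys (SD, n = 6 each, exact permutation p = 0.0022), and at most 0.182 FPKM in any saline library, so that only the Gly groups check the genotype labels. Summed Y-linked transcripts were at most 0.0852 FPKM in KO-Ctrl libraries 1, 2, 3, 5 and 6 and at least 27.1 FPKM in the other 19 libraries, KO-Ctrl library 4 among them. Ribosomal protein genes held 8.82% of FPKM in WT-Gly library 1 and 5.69% in WT-Gly library 5, against 4.72% to 4.95% in the other 4 WT-Gly libraries. Where leaving these libraries out ended a call of the 9 genes or moved a count of their calls over 1.5 times, the value without them is given too. The exception is KO-Gly against WT-Gly without the 5 KO-Ctrl libraries, where not every call of the 9 genes held and no value is given. WT-Gly libraries 1 and 5 were also the lowest of their group for Tgfb2, Tgfb3, Tgfbr1, Tgfbr2, Smad3 and Ctgf. Leaving them out raises the WT-Gly mean of these genes and narrows its spread by construction, so a call gained in that way is a description.

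The upstream sequences of 3 of the genes are shown, chosen by the results of these genes. Tgfb1 and Tgfbi rose with Gly in both genotypes, and Tgfb2 was called in wild type and not in knockout. A link between the sequences and the levels was not tested. Each line holds the 250 bases before the start site, 5′ to 3′ on the gene's strand, from RefSeq on GRCm38.p6 (Tgfb1 at chr7:25686752-25687001, plus strand; Tgfbi at chr13:56609336-56609585, plus strand; Tgfb2 at chr1:186705990-186706239, minus strand).
Tgfb1: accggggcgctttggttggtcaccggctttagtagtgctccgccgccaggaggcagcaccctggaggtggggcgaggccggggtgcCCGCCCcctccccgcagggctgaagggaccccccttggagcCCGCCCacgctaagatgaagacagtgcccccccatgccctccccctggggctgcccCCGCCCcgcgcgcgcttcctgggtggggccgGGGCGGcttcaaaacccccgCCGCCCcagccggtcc
Tgfbi: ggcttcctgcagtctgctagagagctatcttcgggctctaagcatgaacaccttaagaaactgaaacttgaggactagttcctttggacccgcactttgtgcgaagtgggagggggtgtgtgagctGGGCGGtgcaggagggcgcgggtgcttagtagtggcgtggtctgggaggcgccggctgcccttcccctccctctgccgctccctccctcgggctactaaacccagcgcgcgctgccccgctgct
Tgfb2: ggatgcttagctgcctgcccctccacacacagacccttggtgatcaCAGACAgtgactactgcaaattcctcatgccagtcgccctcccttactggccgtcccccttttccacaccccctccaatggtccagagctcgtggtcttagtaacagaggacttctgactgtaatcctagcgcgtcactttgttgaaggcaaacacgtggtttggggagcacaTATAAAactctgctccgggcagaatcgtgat
Capitals mark every match, on either strand, to 6 motifs that were searched for: the Smad element GTCTAGAC, the CAGA element CAGACA, the AP-1 site TGANTCA, the TEAD site GGAATG, the GC box GGGCGG and the TATA box TATAAA. No 2 of the marked matches overlap. The Tgfb1 window held 5 GC boxes and no other of these motifs, and 75.2% of its bases were G or C. The Tgfbi window held 1 GC box, with 62.4% G or C. The Tgfb2 window held no GC box but 1 CAGA element and 1 TATA box, with 53.6% G or C, close to the median of 52.4% over 32851 upstream windows of the same length. Of those 32851 windows, 32.7% held a GC box, 17.1% a CAGA element, 12.4% a TATA box, 12.6% a TEAD site, 6.75% an AP-1 site and 0.167% the Smad element. These shares count windows with at least 1 match. The share of windows with 5 GC boxes or with 75.2% G or C was not computed, so how unusual the Tgfb1 window is was not tested. Windows were also found for Tgfbr1 (2 start sites), Tgfbr2 and Smad3; a match is a description of the sequence and not of binding.

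**Figure D1:**
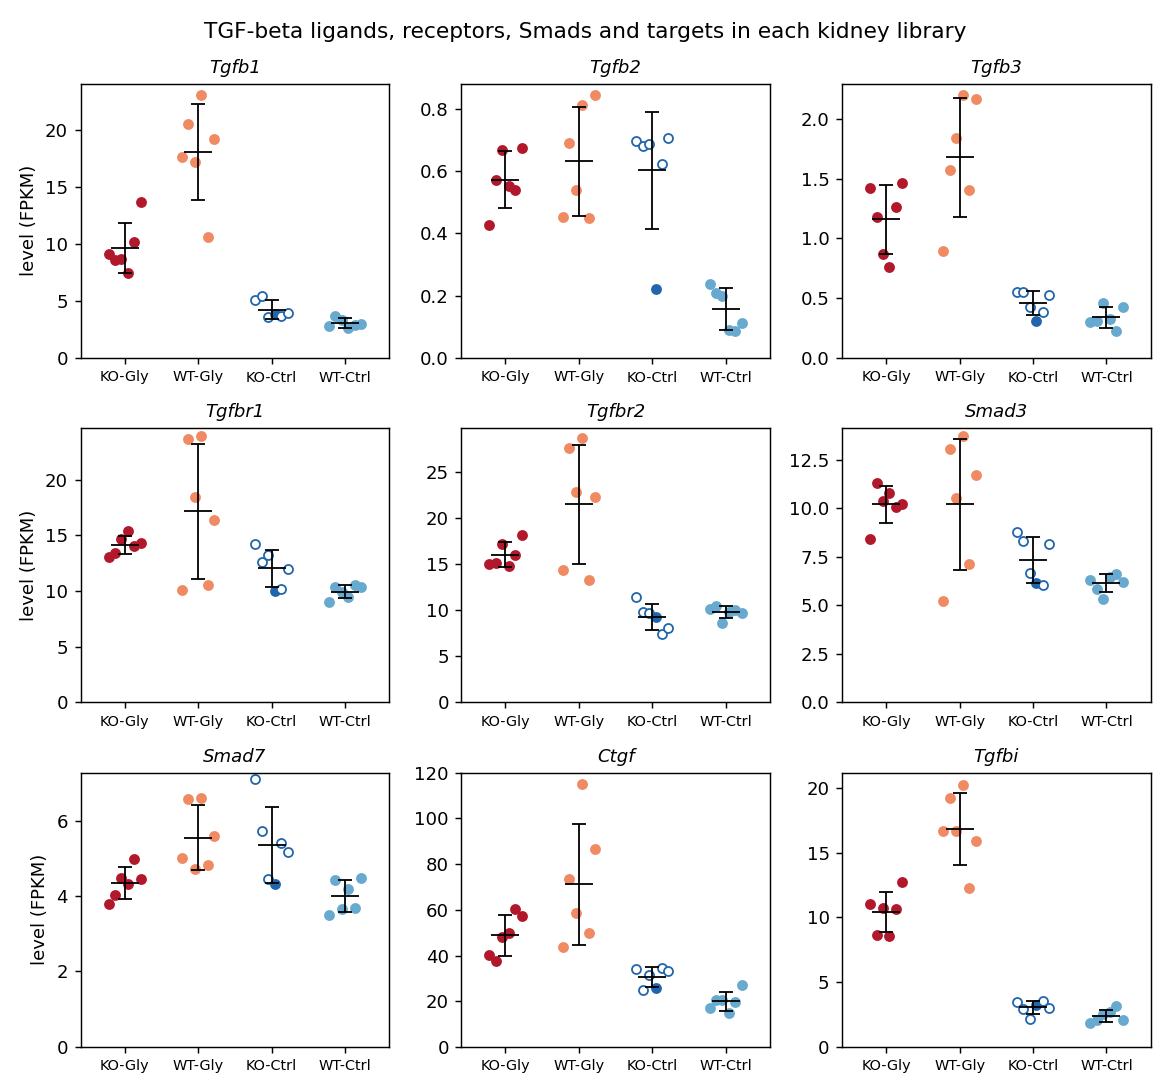
FPKM of each of the 9 genes (vertical axes, linear, starting at 0) in the 24 kidney libraries, by group, with the mean and SD as bars; open circles are the 5 KO-Ctrl libraries without Y-linked transcripts. The means of Tgfb1, Tgfb3, Tgfbr1, Ctgf and Tgfbi show 4 steps, highest in WT-Gly and next in KO-Gly. Smad3 has the same order with nearly equal means in both Gly groups. Tgfb2 averages 0.573 to 0.632 FPKM in 3 groups and 0.156 FPKM in WT-Ctrl.

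With Gly, most of the 9 genes had higher transcript levels than with saline, in knockout as in wild-type kidneys, and for most of them the difference was smaller in knockout. Of the 9 genes, 8 passed the filter on low values (at least 1 FPKM in at least 6 libraries) and entered the test; Tgfb2 did not, and was tested with no filter. A call is a Benjamini-Hochberg adjusted p under 0.05 over all 13020 tested features (limma, on log2(FPKM + 1), which understates the change of low genes). In KO-Gly against KO-Ctrl kidneys, 6 of the 8 were called higher and none lower, where 29.5% of all features were called (23.7% higher, 5.72% lower). Their median log2 difference was 0.60, against 0.12 over all tested features. In WT-Gly against WT-Ctrl kidneys all 8 were called higher, where 63.5% of all features were called (50.2% higher, 13.3% lower), so this count by itself says little about these genes. Their median there was 0.99, against 0.26 over all features.

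Between genotypes under Gly, 4 of the 8 (Tgfb1, Tgfb3, Smad7 and Tgfbi) were lower in KO-Gly than in WT-Gly kidneys and none higher, where 29.8% of features were called (8.37% higher, 21.4% lower), with a median of -0.33 against -0.06 over all. The response difference, that is, the Gly minus saline difference in knockout minus that in wild type, was called for 5 of the 8 (Tgfb1, Tgfb3, Smad7, Ctgf and Tgfbi). All 5 were negative, where 26.6% of features were called (6.28% positive, 20.3% negative), with a median of -0.53 against -0.16. Under saline, 2 of the 8 (Smad7 and Ctgf) were called higher in KO-Ctrl than in WT-Ctrl kidneys, where 10.6% of features were called (6.92% higher, 3.67% lower). For the fit with no filter, which gives the values of Tgfb2, the shares called among 28450 features were 14.0% for KO-Gly against KO-Ctrl, 35.3% for WT-Gly against WT-Ctrl, 13.5% for KO-Gly against WT-Gly, 4.26% for KO-Ctrl against WT-Ctrl, 22.3% for KO-Gly against WT-Ctrl and 11.5% for the response difference.

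The direction of calls over all features depended on the scaling, since the median feature itself differed by 0.12 (log2) between KO-Gly and KO-Ctrl and by 0.26 between WT-Gly and WT-Ctrl. Median-ratio scaling, which sets the typical feature to no change, gave 1608 higher and 1549 lower calls for KO-Gly against KO-Ctrl, where FPKM as deposited gave 3092 and 745. For WT-Gly against WT-Ctrl it gave 3771 and 3685, where the deposited scale gave 6537 and 1728. For KO-Gly against WT-Gly it gave 1693 and 2001, where the deposited scale gave 1090 and 2792. The response difference had 1398 positive and 1425 negative calls after this scaling, and 818 and 2639 before it. The saline genotypes had 645 higher and 743 lower calls after it, and 901 and 478 before it, and KO-Gly against WT-Ctrl had 2145 and 2176 after it, and 5068 and 875 before it. Among the 9 genes no call changed direction with the scaling, and calls that it ended are given with each gene.

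Tgfb1 was the most abundant ligand transcript in all 4 groups. Tgfb1 (ENSMUSG00000002603) had 7.46, 8.90 and 13.7 FPKM (lowest, median and highest library) in KO-Gly kidneys, 10.6, 18.4 and 23.1 FPKM in WT-Gly kidneys, 3.56, 3.87 and 5.44 FPKM in KO-Ctrl kidneys and 2.61, 2.95 and 3.70 FPKM in WT-Ctrl kidneys. All Gly libraries of either genotype lay above all saline libraries. KO-Gly and WT-Gly overlapped only because WT-Gly library 5 (10.6 FPKM) lay below KO-Gly library 6 (13.7 FPKM); the other 5 KO-Gly libraries lay below every WT-Gly library. Mean Tgfb1 was 2.27 times as high in KO-Gly as in KO-Ctrl kidneys (log2 difference 1.01 ± 0.14 SE, adjusted p = 1.00e-05) and 5.90 times as high in WT-Gly as in WT-Ctrl kidneys (2.20 ± 0.14 SE, adjusted p = 5.74e-12). Its mean in KO-Gly kidneys, 9.62 ± 2.18 FPKM, was 0.533 of the 18.0 ± 4.22 FPKM in WT-Gly kidneys (SD, n = 6 each; log2 difference -0.83 ± 0.14 SE, adjusted p = 0.00018, exact permutation p = 0.0043). The knockout response was smaller than the wild-type response by 1.19 ± 0.20 log2 units (SE, adjusted p = 0.00026). Under saline the log2 difference of 0.36 between KO-Ctrl and WT-Ctrl did not pass (adjusted p = 0.11), although it passed when WT-Gly library 5 was left out of the shared spread (adjusted p = 0.041).

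Tgfb3 had the same order of group means as Tgfb1, at a lower level. Tgfb3 (ENSMUSG00000021253) had 0.757, 1.22 and 1.47 FPKM in KO-Gly kidneys, 0.892, 1.70 and 2.20 FPKM in WT-Gly kidneys, 0.306, 0.475 and 0.554 FPKM in KO-Ctrl kidneys and 0.225, 0.318 and 0.459 FPKM in WT-Ctrl kidneys. Gly libraries lay above all saline libraries, and the genotypes overlapped under either treatment. The log2 difference between Gly and saline was 0.56 in knockout (adjusted p = 0.00051) and 0.98 ± 0.11 SE in wild type (adjusted p = 5.06e-08). Tgfb3 was lower in KO-Gly than in WT-Gly by a small margin (log2 difference -0.30 ± 0.11 SE, adjusted p = 0.044, exact permutation p = 0.052), and its response differed by -0.42 ± 0.16 SE (adjusted p = 0.049). These last 2 calls are weak: leaving out any 1 of 13 libraries ended the first (adjusted p up to 0.11) and any 1 of 18 ended the second (adjusted p up to 0.089), and median-ratio scaling ended both (adjusted p = 0.072 and 0.096).

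Tgfb2, the remaining ligand, was at under 1 FPKM in every library and had a different order of groups. Tgfb2 (ENSMUSG00000039239) had 0.429, 0.562 and 0.676 FPKM in KO-Gly kidneys, 0.451, 0.615 and 0.844 FPKM in WT-Gly kidneys, 0.220, 0.684 and 0.706 FPKM in KO-Ctrl kidneys and 0.0868, 0.156 and 0.239 FPKM in WT-Ctrl kidneys. Its WT-Ctrl libraries were the low ones, and the other 3 groups overlapped one another. The ratio of means was 0.951 in KO-Gly against KO-Ctrl kidneys (exact permutation p = 0.76), and 4.05 in WT-Gly against WT-Ctrl kidneys (exact permutation p = 0.0022, no overlap; log2 difference 0.49 ± 0.08 SE, adjusted p = 2.45e-05). The response difference was -0.51 ± 0.11 SE (adjusted p = 0.0042), and -0.13 without the 5 KO-Ctrl libraries that lack Y-linked transcripts (adjusted p = 1.00, an alternative chosen after seeing the data). Under saline, mean Tgfb2 was 3.86 times as high in KO-Ctrl as in WT-Ctrl kidneys (exact permutation p = 0.0043; log2 difference 0.46, adjusted p = 0.0016). That difference moved with the Y-linked transcripts: the 5 KO-Ctrl libraries without them had 0.624 to 0.706 FPKM, while KO-Ctrl library 4, which had them, was at 0.220 FPKM, inside the WT-Ctrl range. With library 4 as the only KO-Ctrl library, the log2 difference of KO-Gly against KO-Ctrl was 0.36 (adjusted p = 0.14) and that of KO-Ctrl against WT-Ctrl 0.08 (adjusted p = 1.00). The KO-Gly libraries all had Y-linked transcripts, and library 4 is the 1 saline knockout library that shares this with them. Against WT-Ctrl kidneys, KO-Gly kidneys had 3.67 times as much Tgfb2 (exact permutation p = 0.0022, no overlap; log2 difference 0.44, adjusted p = 0.00024).

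**Figure D2:**
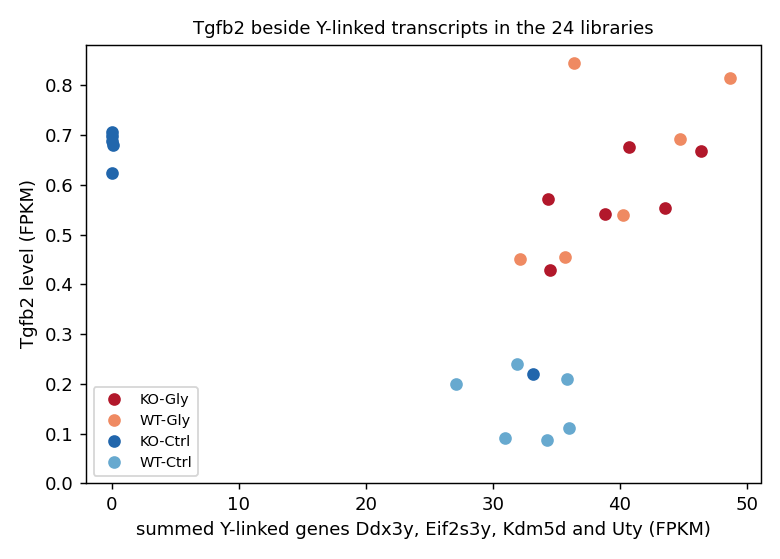
Tgfb2 level against the summed level of 4 Y-linked genes (Uty, Kdm5d, Eif2s3y, Ddx3y), both in FPKM, in the 24 libraries, coloured by group. The 5 KO-Ctrl libraries without Y-linked transcripts stand at the left edge at 0.624 to 0.706 FPKM of Tgfb2, and the sixth KO-Ctrl library stands among the WT-Ctrl libraries.

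Tgfb1 made up most of the ligand transcripts in all 4 groups. It held 84.6% of summed ligand FPKM in KO-Gly kidneys, 88.5% in WT-Gly kidneys, 80.0% in KO-Ctrl kidneys and 86.1% in WT-Ctrl kidneys. Tgfb2 held 5.18% in KO-Gly, 3.12% in WT-Gly, 11.4% in KO-Ctrl and 4.33% in WT-Ctrl kidneys. Tgfb3 held 10.2% in KO-Gly, 8.41% in WT-Gly, 8.62% in KO-Ctrl and 9.58% in WT-Ctrl kidneys. Among KO-Ctrl libraries the Tgfb2 share ranged from 5.08% to 14.7%, a span wider than in any of the other 3 groups.

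Both receptor genes were detected in all 24 libraries. Tgfbr1 (ENSMUSG00000007613), the type I receptor kinase, had 13.1, 14.2 and 15.4 FPKM in KO-Gly kidneys, 10.1, 17.4 and 23.9 FPKM in WT-Gly kidneys, 9.98, 12.3 and 14.3 FPKM in KO-Ctrl kidneys and 9.02, 10.1 and 10.6 FPKM in WT-Ctrl kidneys. The WT-Gly libraries were split: libraries 1 and 5, at 10.1 and 10.5 FPKM, were at the saline level and the other 4 lay between 16.4 and 23.9 FPKM. In knockout the log2 difference of 0.22 between Gly and saline did not pass (adjusted p = 0.29), and in wild type that of 0.66 ± 0.15 SE did (adjusted p = 0.00057), although the groups overlapped. KO-Gly against WT-Gly gave -0.19 (adjusted p = 0.36), and the response difference was -0.44 (adjusted p = 0.14). Without WT-Gly libraries 1 and 5, KO-Gly was called lower (-0.50, adjusted p = 0.00052), and the response difference also passed (-0.74, adjusted p = 0.00022), as it did when library 1 alone (-0.56, adjusted p = 0.026) or library 5 alone (-0.55, adjusted p = 0.034) was left out. Both libraries were the lowest of their group for Tgfbr1, so these omissions raise the WT-Gly mean by construction.

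Tgfbr2 (ENSMUSG00000032440), the type II receptor kinase that binds the ligand first, had 14.7, 15.5 and 18.1 FPKM in KO-Gly kidneys, 13.3, 22.5 and 28.7 FPKM in WT-Gly kidneys, 7.42, 9.46 and 11.4 FPKM in KO-Ctrl kidneys and 8.61, 9.92 and 10.4 FPKM in WT-Ctrl kidneys. In both genotypes every Gly library lay above every saline library, and WT-Gly libraries 1 and 5 were again the lowest of their group. Tgfbr2 rose by 0.73 log2 units in knockout (adjusted p = 0.00031) and by 1.01 ± 0.14 SE in wild type (adjusted p = 1.05e-06). Its response did not differ beyond the spread (-0.27, adjusted p = 0.32), and KO-Gly against WT-Gly gave -0.35 (adjusted p = 0.059). That last value passed without WT-Gly libraries 1 and 5 (-0.63, adjusted p = 3.91e-05), without library 1 alone (-0.45, adjusted p = 0.012), without library 5 alone (-0.47, adjusted p = 0.0055), and after median-ratio scaling (-0.29, adjusted p = 0.041). Tgfbr2 was the member with the smallest genotype difference under saline (-0.08, adjusted p = 0.78).

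**Figure D3:**
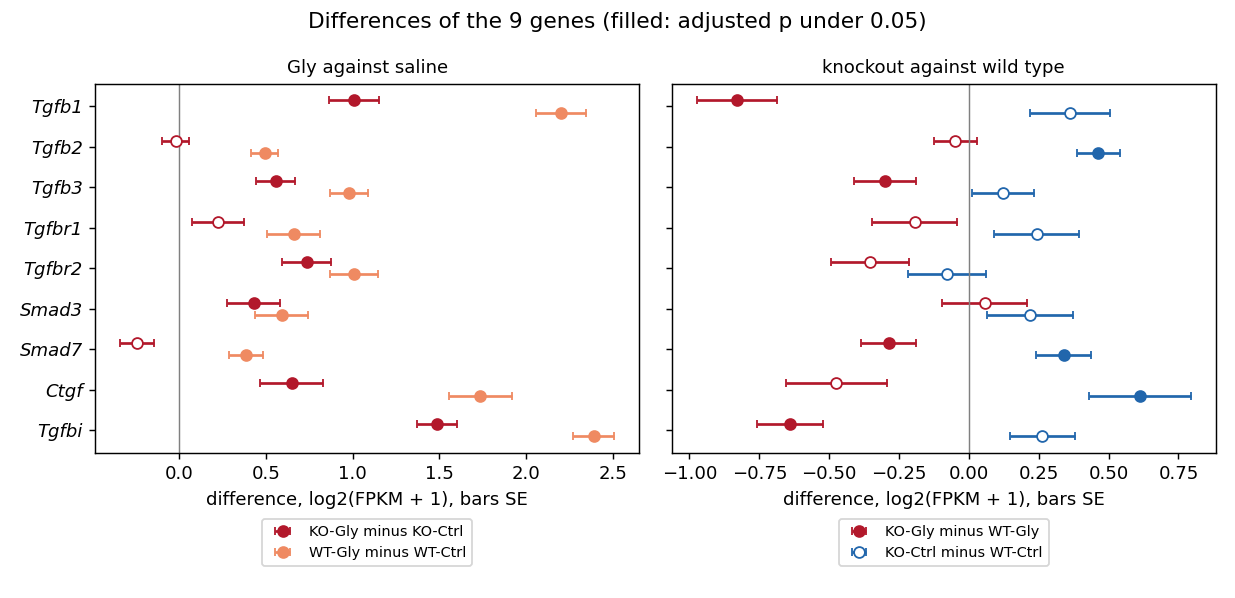
Differences of the 9 genes on the log2(FPKM + 1) scale with their standard errors; left, KO-Gly minus KO-Ctrl and WT-Gly minus WT-Ctrl, and right, KO-Gly minus WT-Gly and KO-Ctrl minus WT-Ctrl (filled symbols, adjusted p under 0.05; Tgfb2 from the fit with no filter). On the left the wild-type symbol lies to the right of the knockout symbol for each gene, from 0.38 for Smad7 to 2.39 for Tgfbi in wild type.

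Smad3 and Smad7, which carry and restrain the signal, differed from each other. Smad3 (ENSMUSG00000032402), a transcription factor activated by the receptors, had 8.44, 10.3 and 11.3 FPKM in KO-Gly kidneys, 5.21, 11.1 and 13.7 FPKM in WT-Gly kidneys, 6.07, 7.42 and 8.79 FPKM in KO-Ctrl kidneys and 5.34, 6.25 and 6.64 FPKM in WT-Ctrl kidneys. KO-Gly and WT-Gly kidneys had nearly the same mean, 10.2 ± 0.972 and 10.2 ± 3.38 FPKM (SD, n = 6 each; exact permutation p = 0.99), with WT-Gly libraries 1 (5.21 FPKM) and 5 (7.15 FPKM) the lowest of the 12. Smad3 rose in knockout (0.43, adjusted p = 0.036) and in wild type (0.59 ± 0.15 SE, adjusted p = 0.0016). The rise in knockout was lost when any 1 of 8 libraries was left out (adjusted p up to 0.082), after median-ratio scaling (0.29, adjusted p = 0.088) and with no filter (adjusted p = 0.077). The responses did not differ beyond the spread (-0.16, adjusted p = 0.62), although they did without WT-Gly libraries 1 and 5 (-0.46, adjusted p = 0.0077).

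Smad7 (ENSMUSG00000025880), the inhibitory Smad that competes for the receptor and marks it for degradation, had 3.78, 4.38 and 4.99 FPKM in KO-Gly kidneys, 4.71, 5.29 and 6.61 FPKM in WT-Gly kidneys, 4.31, 5.29 and 7.09 FPKM in KO-Ctrl kidneys and 3.50, 3.94 and 4.49 FPKM in WT-Ctrl kidneys. In knockout the means were 4.34 ± 0.416 FPKM with Gly and 5.36 ± 1.01 FPKM with saline (SD, n = 6 each), with overlap, while in wild type all Gly libraries lay above all saline libraries. The log2 difference was -0.24 in knockout (adjusted p = 0.068) and 0.38 ± 0.10 SE in wild type (adjusted p = 0.0015), and the responses differed by -0.63 ± 0.14 SE (adjusted p = 0.0022). Smad7 was lower in KO-Gly than in WT-Gly (-0.29, adjusted p = 0.031, exact permutation p = 0.0065). Without 1 of WT-Gly libraries 2 and 4 or KO-Gly libraries 1 and 2, the adjusted p lay between 0.064 and 0.076. Smad7 is the member whose treatment calls turn on the scaling: after median-ratio scaling its knockout difference was called lower (-0.37, adjusted p = 0.0016) and its wild-type difference was 0.12 (adjusted p = 0.21). In knockout it was also called lower without KO-Ctrl library 3 (adjusted p = 0.045) or 4 (adjusted p = 0.033). The negative response difference was called under either scaling. With library 4 as the only KO-Ctrl library, however, the knockout difference of Smad7 was 0.0049 (adjusted p = 0.99).

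Ctgf and Tgfbi, both known to be induced by TGF-beta, rose in both genotypes. Ctgf (ENSMUSG00000019997), a secreted matricellular protein also named Ccn2, had the highest level of the 9 genes, with 37.8, 48.9 and 60.2 FPKM in KO-Gly kidneys, 43.7, 66.1 and 115 FPKM in WT-Gly kidneys, 24.9, 32.4 and 34.5 FPKM in KO-Ctrl kidneys and 14.6, 20.1 and 27.0 FPKM in WT-Ctrl kidneys. Gly libraries lay above saline libraries in both genotypes, and WT-Gly library 4 stood highest at 115 FPKM. The mean was 1.60 times as high in KO-Gly as in KO-Ctrl kidneys (log2 difference 0.65, adjusted p = 0.0090, and 0.054 after quantile normalization) and 3.58 times as high in WT-Gly as in WT-Ctrl kidneys (1.74 ± 0.18 SE, adjusted p = 1.34e-08). The responses differed by -1.09 ± 0.26 SE (adjusted p = 0.0034). Part of this difference lay in the saline groups, where Ctgf was higher in KO-Ctrl than in WT-Ctrl kidneys (0.61, adjusted p = 0.032), and part in the Gly groups, where -0.47 did not pass (adjusted p = 0.051). The value of -0.47 passed when any 1 of 7 libraries was left out (adjusted p from 0.012 to 0.049) and without WT-Gly libraries 1 and 5 (-0.74, adjusted p = 0.0018). Those WT-Gly libraries were the lowest of their group for Ctgf.

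Tgfbi (ENSMUSG00000035493), a secreted matrix protein that binds collagens and integrins, had 8.59, 10.7 and 12.7 FPKM in KO-Gly kidneys, 12.3, 16.7 and 20.3 FPKM in WT-Gly kidneys, 2.19, 3.12 and 3.51 FPKM in KO-Ctrl kidneys and 1.85, 2.32 and 3.15 FPKM in WT-Ctrl kidneys. Gly libraries lay above all saline libraries in both genotypes. Its mean was 3.40 times as high in KO-Gly as in KO-Ctrl kidneys (log2 difference 1.49, adjusted p = 3.49e-09) and 7.03 times as high in WT-Gly as in WT-Ctrl kidneys (2.39 ± 0.12 SE, adjusted p = 5.82e-14), each the largest such ratio among the 9 genes. KO-Gly libraries lay below all WT-Gly libraries in 5 of 6 cases, and the mean of 10.4 ± 1.57 FPKM was 0.618 of the 16.8 ± 2.80 FPKM in WT-Gly kidneys (SD, n = 6 each; log2 difference -0.64, adjusted p = 0.00031, exact permutation p = 0.0043). The responses differed by -0.90 ± 0.17 SE (adjusted p = 0.00047), and saline groups by 0.26 (adjusted p = 0.16).

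The saline baseline of the knockout bears on every knockout response. KO-Ctrl library 4, the one with Y-linked transcripts, lay within the WT-Ctrl range for 7 of the 9 genes and above it for Tgfb1 (3.82 FPKM, against a WT-Ctrl maximum of 3.70 FPKM) and Tgfbi (3.24 FPKM, against 3.15 FPKM). For Smad7 and Ctgf, the 2 tested members called higher in KO-Ctrl, library 4 had 4.31 and 25.7 FPKM, and the 5 libraries without Y-linked transcripts had medians of 5.42 and 33.1 FPKM. Leaving these 5 libraries out, with library 4 taken to vary like the other groups, gave log2 differences of 0.09 for Smad7 and 0.38 for Ctgf (adjusted p = 1.00 for each). Even with all libraries, leaving out any 1 of 7 ended the Smad7 call (adjusted p up to 0.092) and any 1 of 6 the Ctgf call (adjusted p up to 0.083). Genotype and the lack of Y-linked transcripts cannot be told apart in the other 5 KO-Ctrl libraries. Without those 5 libraries the response difference of no tested member passed (0 of 8 by limma, where 10 of 13020 features passed and 1478 had an unadjusted p under 0.05), while the values were -1.08 for Tgfb1 (adjusted p = 0.18), -0.97 for Tgfbi (adjusted p = 0.13), -0.85 for Ctgf (adjusted p = 0.45), -0.38 for Smad7 (adjusted p = 0.47) and -0.27 for Tgfb3 (adjusted p = 0.75). With library 4 as the only KO-Ctrl library, the knockout rises of Tgfb1 (1.12, adjusted p = 0.022) and Tgfbi (1.42, adjusted p = 0.0011) still passed, and those of Tgfb3 (0.71, adjusted p = 0.072), Tgfbr2 (0.73, adjusted p = 0.12), Ctgf (0.88, adjusted p = 0.16) and Smad3 (0.64, adjusted p = 0.21) did not.

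KO-Gly kidneys were also set against WT-Ctrl kidneys, both groups with Y-linked transcripts throughout. Of the 8 tested members 7 were higher, all but Smad7 (0.10, adjusted p = 0.43), where 45.6% of all features were called (38.9% higher, 6.72% lower). The largest were Tgfbi (1.75, adjusted p = 1.33e-10), Tgfb1 (1.37, adjusted p = 8.07e-08) and Ctgf (1.26, adjusted p = 6.82e-06). Tgfbr1 passed on the deposited scale (0.47, adjusted p = 0.015) and not after median-ratio scaling (0.23, adjusted p = 0.14). For 8 of the 9 genes, all but Smad7, every KO-Gly library lay above every WT-Ctrl library, where this held for 28.0% of all tested features (and the reverse for 3.33%). Between KO-Gly and KO-Ctrl kidneys 5 of the 9 (Tgfb1, Tgfb3, Tgfbr2, Ctgf and Tgfbi) were higher with no overlap, where 15.5% of features were higher and 2.10% lower in this way. Between WT-Gly and WT-Ctrl kidneys 7 of the 9 (all but Tgfbr1 and Smad3) were higher with no overlap, where 31.3% of features were higher and 7.60% lower. For each of the 9 genes the genotypes overlapped, under Gly (2.40% of features higher and 6.30% lower with no overlap) and under saline (3.94% and 0.868%). All 45 exact tests (9 genes, 5 pairs of groups) were two-sided, 34 had p under 0.05, and 0.0022 is the smallest p they can give.

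The 2 receptors and Smad3 also varied together within groups. After the group means were removed, the log2 levels of Tgfbr1 correlated with those of Tgfbr2 (Pearson r = 0.90) and Smad3 (0.88) over the 24 libraries, and Tgfbr2 with Smad3 (0.83). For Tgfb1 the highest such value with another member was with Tgfbr2 (0.69), and for Tgfbi it was with Tgfb1 (0.62). The points share their library and its FPKM scaling, and WT-Gly libraries 1 and 5 were the lowest of their group for all 3 genes, so these values are descriptions with no test. By correlation over all 24 libraries, group differences included, the features most like Tgfb1 were Cnn2, Fblim1 and Cygb (r = 0.99 each), and those most like Tgfbi were Junb (0.99), Ankrd1 and Tmem173 (0.98 each). Tgfb3 was most like Loxl2 (0.96), Itga9 (0.96) and Msn (0.96), and Ctgf most like Cyp1b1, Csnk1e and Prkar1a (0.95 each). The receptors and Smad3 were most like Pafah1b1 (0.98, Tgfbr1), Agrn (0.98, Tgfbr2) and Casp2 (0.97, Smad3), with r still 0.94 to 0.96 around the group means. The feature most like Smad7 was Ank, at 0.80.

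Other genes of the pathway were grouped by role, and their counts stand against the shares over all tested features: 23.7% higher and 5.72% lower in KO-Gly against KO-Ctrl, 50.2% and 13.3% in WT-Gly against WT-Ctrl, and 8.37% and 21.4% in KO-Gly against WT-Gly. Without the 5 KO-Ctrl libraries that lack Y-linked transcripts the shares in KO-Gly against KO-Ctrl were 4.62% higher and 1.08% lower, and without WT-Gly libraries 1 and 5 those in KO-Gly against WT-Gly were 7.03% and 32.2%. Of 16 genes of ligand latency and activation 15 were tested: 9 rose and none fell in KO-Gly against KO-Ctrl kidneys (3 rose without the 5 KO-Ctrl libraries), and 13 rose and 1 fell in WT-Gly against WT-Ctrl kidneys. Here and in the lists below, 4 genes are named for the smallest p in WT-Gly against WT-Ctrl. That choice by itself favours a WT-Gly level far from saline. The KO-Gly minus WT-Gly values of these named genes are therefore descriptions, and their p-values support nothing. Emilin1, a matrix protein that holds the ligand precursor back from processing, averaged 11.0 ± 1.93 FPKM in KO-Gly, 19.4 ± 4.69 FPKM in WT-Gly, 4.09 ± 0.553 FPKM in KO-Ctrl and 2.93 ± 0.568 FPKM in WT-Ctrl kidneys (SD, n = 6 each), and was lower in KO-Gly than in WT-Gly by 0.74 log2 units (adjusted p = 0.00035). Nrros, which anchors latent TGF-beta on macrophages and microglia, rose by 0.50 in knockout (adjusted p = 0.0036, and 0.13 without the 5 KO-Ctrl libraries) and 1.47 in wild type (adjusted p = 4.33e-10) and fell by 0.80 in KO-Gly against WT-Gly (adjusted p = 6.28e-05). Fbn1, the microfibril protein fibrillin-1, rose by 1.34 in knockout and 1.90 in wild type (adjusted p = 2.44e-06 and 1.13e-09). Itgb6, the beta subunit of an epithelial integrin that releases the ligand, rose by 1.06 in knockout and 1.73 in wild type (adjusted p = 1.77e-05 and 1.57e-09). The gene that fell was Furin (-0.42, adjusted p = 0.0022), a protease that cleaves the ligand precursor, named here after its value was seen. In KO-Gly against WT-Gly 6 of the 15 were lower and none higher on the deposited scale, and 12 were lower without WT-Gly libraries 1 and 5. After median-ratio scaling 6 were lower and 3 higher (Ltbp1, Itgb8 and Furin), where 15.4% of all features were lower and 13% higher. After quantile normalization 4 were lower and 3 higher, where 17.2% of all features were lower and 15.6% higher.

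Receptors and Smads outside the 9 genes were counted in the same way. Of 11 other receptors and coreceptors 10 were tested: none passed in KO-Gly against KO-Ctrl kidneys (limma; 0 also at an unadjusted p under 0.05), and 4 rose and 1 fell in WT-Gly against WT-Ctrl kidneys. Endoglin (Eng), a coreceptor of endothelial cells, gave -0.01 in knockout (adjusted p = 0.94) and rose by 0.68 in wild type (adjusted p = 8.98e-06), with 25.0 ± 2.51 FPKM in KO-Gly, 26.7 ± 4.66 FPKM in WT-Gly, 25.3 ± 3.73 FPKM in KO-Ctrl and 16.1 ± 1.50 FPKM in WT-Ctrl kidneys (SD, n = 6 each). The list's median log2 difference in the wild-type contrast was 0.19, and -0.04 after median-ratio scaling, with 2 higher and 3 lower calls. After that scaling 29% of all features were higher and 28.3% lower. In that contrast the receptor gene Acvr1 rose by 0.60 (adjusted p = 6.12e-05), Acvrl1 rose by 0.45 (adjusted p = 0.0025) on the deposited scale and not after median-ratio scaling (0.18, adjusted p = 0.14), and Acvr2b fell by 0.45 (adjusted p = 0.0038). Of 11 other Smads and partners 9 were tested: 2 rose in knockout and 3 in wild type. The knockout calls, Smad2 (0.48, adjusted p = 0.0032) and Smad4 (0.24, adjusted p = 0.039), were lost without the 5 KO-Ctrl libraries (adjusted p = 0.24 and 0.14). In wild type these were Smad2, the partner of Smad3 (1.03, adjusted p = 5.92e-08), Smad1 of the BMP branch (0.70, adjusted p = 4.30e-06) and the shared Smad4 (0.36, adjusted p = 0.00087). Smad4 lost its call after median-ratio scaling (0.07, adjusted p = 0.42), where the median of this list was -0.07, against 0.17 on the deposited scale. Smad5, another Smad of the BMP branch, gave 0.27 (adjusted p = 0.058), and passed without WT-Gly libraries 1 and 5 (0.47, adjusted p = 0.00042). In that setting 8 of the 9 rose, where 60.3% of all features were higher and 12.4% lower. Smad2 was lower in KO-Gly (10.8 ± 1.48 FPKM) than in WT-Gly kidneys (17.2 ± 4.16 FPKM; SD, n = 6 each; log2 difference -0.61, adjusted p = 0.00051).

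Of 17 inhibitors 14 were tested: 6 rose, none fell and 8 did not pass in KO-Gly against KO-Ctrl kidneys (4 rose without the 5 KO-Ctrl libraries), and 11 rose and none fell in WT-Gly against WT-Ctrl kidneys. After median-ratio scaling the wild-type counts were 9 higher and 2 lower, where 29% of all features were higher and 28.3% lower. Bgn, the proteoglycan biglycan, rose by 1.17 in knockout and 2.53 in wild type (adjusted p = 2.48e-05 and 2.17e-11; in knockout 0.066 without the 5 KO-Ctrl libraries) and was lower in KO-Gly (86.1 ± 21.8 FPKM) than in WT-Gly kidneys (144 ± 47.3 FPKM; SD, n = 6 each; log2 difference -0.70, adjusted p = 0.0046). Tgif1, a nuclear corepressor of Smad2, rose by 0.91 in knockout and 1.22 in wild type (adjusted p = 1.70e-06 and 1.75e-09). Fst, which encodes the activin-binding follistatin, rose by 0.90 in knockout and 1.33 in wild type (adjusted p = 1.13e-05 and 4.30e-09), and its KO-Gly minus WT-Gly difference was 0.03 (adjusted p = 0.91). Fstl1, a follistatin-like secreted protein, rose by 1.26 in knockout and 1.97 in wild type (adjusted p = 1.63e-05 and 2.70e-09). Among inhibitors 3 of 14 were lower in KO-Gly than in WT-Gly, a share equal to the 21.4% of all features, and 8 of 14 without WT-Gly libraries 1 and 5, where 32.2% of all features were lower.

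Of 11 related ligands, with the enzyme Bmp1 among them, 7 were tested: 5 rose and none fell in KO-Gly against KO-Ctrl kidneys (2 rose without the 5 KO-Ctrl libraries), and 5 rose and 1 fell in WT-Gly against WT-Ctrl kidneys. After median-ratio scaling Bmp4, another BMP ligand, was called lower in knockout (-0.35, adjusted p = 0.012). Gdf15, a stress-induced distant member of the family, averaged 14.9 ± 4.78 FPKM in KO-Gly, 41.9 ± 6.71 FPKM in WT-Gly, 4.29 ± 1.01 FPKM in KO-Ctrl and 5.13 ± 0.919 FPKM in WT-Ctrl kidneys (SD, n = 6 each), with -1.47 log2 units between KO-Gly and WT-Gly (adjusted p = 2.96e-06). Bmp6, a ligand of the BMP branch, rose by 0.78 in knockout and 1.14 in wild type (adjusted p = 1.83e-06 and 5.13e-10; in knockout 0.051 without the 5 KO-Ctrl libraries). Bmp1, a protease that processes procollagen, rose by 0.83 in knockout and 1.77 in wild type (adjusted p = 0.0030 and 4.66e-08). Inhbb, an activin subunit, rose by 0.73 in knockout and 1.08 in wild type (adjusted p = 0.0010 and 1.85e-06; in knockout 0.097 without the 5 KO-Ctrl libraries). The ligand that fell in wild type was Bmp7 (-0.21, adjusted p = 0.020), known to oppose TGF-beta in the kidney, which was higher in KO-Gly than in WT-Gly (0.39, adjusted p = 0.00069) and is named after its value was seen.

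Of the 6 lists, the 29 other target genes, all tested, had the largest medians. In KO-Gly against KO-Ctrl kidneys 21 rose and 2 fell, with a median log2 difference of 1.16 against 0.12 over all tested features. In WT-Gly against WT-Ctrl kidneys 25 rose and none fell, with a median of 1.93 against 0.26. The 2 that fell in knockout were Id1 (-0.96, adjusted p = 0.00092) and Id3 (-0.79, adjusted p = 0.0030), transcription regulators known as targets of BMPs. Without the 5 KO-Ctrl libraries 16 rose and none fell, and neither Id1 (-0.50, adjusted p = 0.44) nor Id3 (-0.62, adjusted p = 0.34) passed. In KO-Gly against WT-Gly 16 of 29 were lower and none higher (median -0.57 against -0.06), and 21 were lower without WT-Gly libraries 1 and 5. Ankrd1, a nuclear ankyrin-repeat protein, averaged 7.18 ± 1.28 FPKM in KO-Gly, 19.4 ± 3.96 FPKM in WT-Gly, 0.846 ± 0.260 FPKM in KO-Ctrl and 0.576 ± 0.394 FPKM in WT-Ctrl kidneys (SD, n = 6 each), and its responses differed by -1.56 (adjusted p = 1.74e-05). Spp1, the secreted crystal-binding protein osteopontin, averaged 4902 ± 943 FPKM in KO-Gly, 8253 ± 1211 FPKM in WT-Gly, 963.5 ± 249.6 FPKM in KO-Ctrl and 417 ± 39.4 FPKM in WT-Ctrl kidneys (SD, n = 6 each). Timp1, an inhibitor of matrix metalloproteinases, was lower in KO-Gly than in WT-Gly by 1.52 log2 units (adjusted p = 1.09e-05) and Junb, an AP-1 subunit, by 0.68 (adjusted p = 0.00024). The response difference was negative and called for 21 of the 29, at a median of -1.01, where 6.28% of all features were called positive and 20.3% negative. Without the 5 KO-Ctrl libraries that lack Y-linked transcripts the median was -0.91, and none of the 29 was among the 10 features that still passed.

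**Figure D4:**
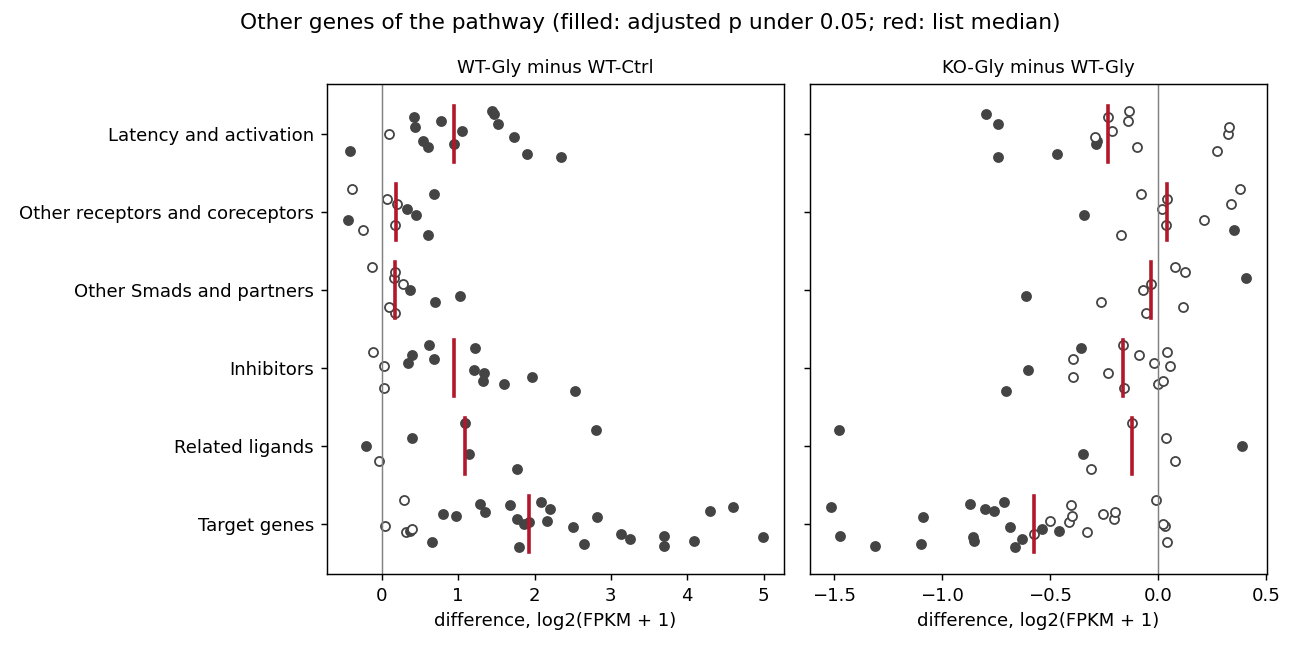
Log2 differences of each tested gene of the 6 pathway lists (one point a gene, filled where adjusted p was under 0.05) in WT-Gly minus WT-Ctrl on the left and KO-Gly minus WT-Gly on the right; the red bar is the list's median. Target genes lie furthest from 0 in both panels, with medians of 1.93 and -0.57.

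Summed macrophage markers and summed fibroblast and pericyte markers had the same order of group means as Tgfb1, and so had summed smooth muscle markers. Proximal tubule marker sums had the reverse order, with means of 3335 FPKM in KO-Gly, 2134 FPKM in WT-Gly, 3392 FPKM in KO-Ctrl and 3851 FPKM in WT-Ctrl kidneys. Endothelial marker sums had neither order. In whole kidney, fewer cells of a type and less RNA per cell cannot be told apart. The counts below stand against the shares over all tested features. These were 23.7% higher and 5.72% lower in KO-Gly against KO-Ctrl, and 50.2% and 13.3% in WT-Gly against WT-Ctrl. In KO-Gly against WT-Gly they were 8.37% higher and 21.4% lower. KO-Ctrl library 4, the one with Y-linked transcripts, had 56.6 FPKM of macrophage and 32.0 FPKM of fibroblast and pericyte markers. Of 11 macrophage markers 10 rose in KO-Gly against KO-Ctrl kidneys, all 11 rose in WT-Gly against WT-Ctrl kidneys, and all 11 were lower in KO-Gly than in WT-Gly; their summed level ranged from 165 to 488 FPKM in KO-Gly, 319 to 887 FPKM in WT-Gly, 45.8 to 93.3 FPKM in KO-Ctrl and 41.9 to 73.2 FPKM in WT-Ctrl kidneys. All 9 fibroblast and pericyte markers rose with Gly in both genotypes and 5 of 9 were lower in KO-Gly than in WT-Gly, with sums of 101 to 260 FPKM in KO-Gly, 126 to 332 FPKM in WT-Gly, 28.4 to 37.2 FPKM in KO-Ctrl and 19.7 to 31.4 FPKM in WT-Ctrl kidneys. No marker of either list was at 0 in a whole group, and 4 fibroblast markers (Dcn, Col1a1, Col1a2 and Col3a1) are also in the pathway lists. Of 9 proximal tubule markers, 7 were higher in KO-Gly than in WT-Gly and 6 were lower in WT-Gly than in WT-Ctrl kidneys. In KO-Gly against KO-Ctrl kidneys 1 of them was higher and 1 lower. After median-ratio scaling 0 were higher and 4 lower there, where 12.4% of all features were higher and 11.9% lower. In WT-Gly against WT-Ctrl all 9 were then lower, where 29% of all features were higher and 28.3% lower. After that scaling 7 were still higher in KO-Gly than in WT-Gly, where 13% of all features were higher and 15.4% lower. Endothelial markers summed to 87.8 to 138 FPKM in KO-Gly and 72.0 to 107 FPKM in WT-Gly kidneys, and none of the 9 was called between them (limma; 1 at an unadjusted p under 0.05). The part of these cell types in the levels of Tgfb1, Ctgf and Tgfbi was not tested.

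**Figure D5:**
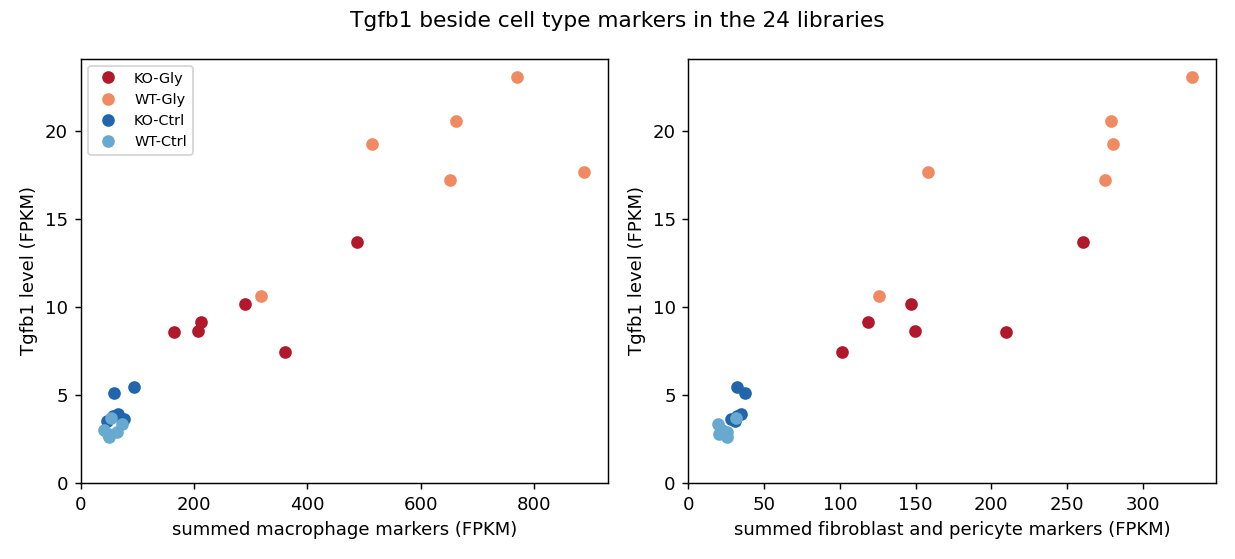
Tgfb1 level against the summed macrophage markers (left) and the summed fibroblast and pericyte markers (right), all in FPKM, one point a library, coloured by group. Saline libraries lie together at the lower left. KO-Gly library 6, the highest of its group for Tgfb1 at 13.7 FPKM, also has the highest marker sums of its group, 488 and 260 FPKM. Other libraries do not follow this. KO-Gly library 4 has 361 FPKM of macrophage markers and the lowest Tgfb1 of its group, 7.46 FPKM. WT-Gly library 1 has the highest macrophage sum of all, 887 FPKM, and Tgfb1 at 17.7 FPKM, below its group's median of 18.4 FPKM.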

How the data were processed

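The 24 kidney RNA sequencing libraries, made with an Illumina TruSeq kit from 1 µg of total RNA per the labels' protocols, were used as the FPKM values that the authors deposited for 28450 features. The submitters' processing notes name Bowtie 0.12.2 and the builds mm8 and mm9, with no role; what gene models, counting, strand setting or FPKM tool they used is not stated in the labels or notes. Gene symbols were those of the deposited table. Of the features, 22036 have Ensembl IDs and 6414 are models added by the authors. FPKM divides by the library total, so a few abundant genes can lower all others, and it keeps no depth: at most 2.55% of low features shared 1 ratio between libraries, so no interval from counts is given. No 2 libraries were identical (r from 0.8662 to 0.9928).

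log2(FPKM + 1) was fitted by group mean with limma 3.58.1 in R 4.3.3 (trend over mean level), with all 4 groups sharing one spread, for features at 1 FPKM or more in at least 6 libraries, and p-values were adjusted by Benjamini-Hochberg over the 13020 tested. The script was tested on simulated data. Exact two-sided permutation tests on mean FPKM used SciPy 1.17.1, and their p-values are given unadjusted with the size of the family. Alternatives were pseudocounts of 0.1 and 0.01, no filter, median-ratio and quantile scaling, array weights, only the groups compared, a replicate block, each library left out in turn, and the 2 sets of libraries that stood apart left out. The 9 genes, the pathway and marker lists and the rules were chosen with earlier results of these data known. In each pathway list the 4 genes with the smallest p in WT-Gly against WT-Ctrl are named, and for likeness the 3 features with the highest Pearson r.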

Additional observations from a re-analysis of the deposited data

Results flagged for a closer look

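In KO-Ctrl kidneys, library 4 stood apart from the other 5 for Tgfb2, at 0.220 FPKM against 0.624 to 0.706 FPKM (its gap to the nearest, over the range, is above Dixon's critical value). Of 48 groups of values examined it was the only one, where chance gives about 1 in 20. Library 4 is also the one KO-Ctrl library with Y-linked transcripts; their part in the result was not tested.

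The response to Gly differed between knockout and wild type for 20 of 33 named genes, each with a negative difference (knockout minus wild type, log2, limma, adjusted p under 0.05 over all features), where 26.6% of all features were called and 20.3% were negative. Of the 33, 24 were named for the smallest p in the wild-type response, a choice that by itself favours a negative difference, so the count supports nothing. Among the 9 genes these were Tgfb1 (-1.19), Ctgf (-1.09), Tgfbi (-0.90), Smad7 (-0.63), Tgfb2 (-0.51, with no filter) and Tgfb3 (-0.42). Among latency genes they were Emilin1 (-1.12), Nrros (-0.97) and Itgb6 (-0.66). Among receptors and Smads they were Eng (-0.69), Smad2 (-0.55), Acvrl1 (-0.48) and Smad1 (-0.44). Among inhibitors and related ligands they were Bgn (-1.36), Gdf15 (-1.25) and Bmp1 (-0.95), and among targets Spp1 (-1.92), Ankrd1 (-1.56), Timp1 (-1.49) and Junb (-1.05). Without the 5 KO-Ctrl libraries that lack Y-linked transcripts none of these passed, with 10 features called over all tested features; Tgfb2, in the fit with no filter, was then at -0.13 (adjusted p = 1.00).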

How the results depend on the processing

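Over the 9 genes, 6 contrasts and the alternatives other than single-library omissions, 427 log2 differences kept their side of the threshold, 25 passed it newly and 38 no longer passed, and none changed sign while called. Leaving out the libraries that stood apart in the fit with no filter, for Tgfb2, was chosen after seeing the data. Counts that moved by over 1.5 times were these. For KO-Gly against KO-Ctrl, array weights called 6058 features, and without the 5 KO-Ctrl libraries that lack Y-linked transcripts 2 members and 741 features were called. For KO-Ctrl against WT-Ctrl, members called were 0 with quantile normalization, 6 with array weights, 4 with only the groups compared and 0 without those 5 libraries. Features called there were 5560 with array weights, 2746 with only the groups compared, 2660 without WT-Gly libraries 1 and 5, and 0 without the 5 libraries (limma, 101 at an unadjusted p under 0.05). For KO-Gly against WT-Gly, members called were 2 with no filter, 2 with only the groups compared (2168 features) and 7 without WT-Gly libraries 1 and 5. For the response difference, array weights called 8 members and 6896 features. Without WT-Gly libraries 1 and 5 it was called for 8 members and 5719 features, and without the 5 KO-Ctrl libraries for 0 members and 10 features. WT-Gly libraries 1 and 5 were the lowest of their group for Tgfb2, Tgfb3, Tgfbr1, Tgfbr2, Smad3 and Ctgf. Leaving them out raises the WT-Gly means of these genes by construction. Beyond this and the fewer samples that the omissions leave, the cause of these shifts was not tested.

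With each library left out in turn, members called ranged from 5 to 6 (features 3080 to 4805) for KO-Gly against KO-Ctrl, 8 to 8 (7892 to 8687) for WT-Gly against WT-Ctrl, 0 to 3 (817 to 2116) for KO-Ctrl against WT-Ctrl, 2 to 6 (3213 to 4263) for KO-Gly against WT-Gly, 7 to 7 (5236 to 6935) for KO-Gly against WT-Ctrl, and 4 to 6 (2918 to 4279) for the response difference. The features of KO-Ctrl against WT-Ctrl fell to 817, 843 and 832 without KO-Ctrl libraries 1, 2 and 6, against 2116 without library 4. In the exact tests, Tgfbi in KO-Ctrl against WT-Ctrl moved to p = 0.052 on the log2 scale, against 0.050 on the FPKM scale.

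The replicate numbers did not pair the libraries: of 36 pairs with the same number, 7 had deviations correlated over 0.1 (median r = -0.0229), and 1 of 24 libraries correlated best with its own number. With a replicate block, features called were 3698 for KO-Gly against KO-Ctrl, 8217 for WT-Gly against WT-Ctrl, 1165 for KO-Ctrl against WT-Ctrl, 3707 for KO-Gly against WT-Gly, 5830 for KO-Gly against WT-Ctrl and 3266 for the response difference, and of the members' calls the block ended the 2 of Tgfb3 (adjusted p = 0.058 and 0.064). Low members are limited most by the unknown depth, Tgfb2 first.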

Other observations

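Other cell type markers were summed as well. Smooth muscle markers averaged 73.6 FPKM in KO-Gly, 114 FPKM in WT-Gly, 39.2 FPKM in KO-Ctrl and 31.5 FPKM in WT-Ctrl kidneys. Of these markers 2 of 4 were lower in KO-Gly than in WT-Gly, where 21.4% of all features were lower. Acta2 and Tagln are in that list and in the target list. Podocyte markers averaged 62.7 FPKM in KO-Gly, 47.4 FPKM in WT-Gly, 74.5 FPKM in KO-Ctrl and 47.8 FPKM in WT-Ctrl kidneys. Of these markers 4 of 5 were higher in KO-Ctrl than in WT-Ctrl, where 6.92% of all features were called higher and 3.67% lower. The KO-Ctrl libraries other than library 4 lack Y-linked transcripts. The fit without them keeps only library 4 in its group, so it cannot decide their part in this count. Distal nephron markers averaged 2593 FPKM in KO-Gly, 2213 FPKM in WT-Gly, 2691 FPKM in KO-Ctrl and 2284 FPKM in WT-Ctrl kidneys. Blood cell markers averaged 263 FPKM in KO-Gly, 199 FPKM in WT-Gly, 1492 FPKM in KO-Ctrl and 1516 FPKM in WT-Ctrl kidneys. All 5 were lower with Gly than with saline in both genotypes, where 5.72% of all features were lower in knockout and 13.3% in wild type.

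Platelet markers, of a cell type that stores Tgfb1 protein, averaged 3.94 FPKM in KO-Gly, 7.28 FPKM in WT-Gly, 2.54 FPKM in KO-Ctrl and 2.62 FPKM in WT-Ctrl kidneys. Neutrophil markers averaged 6.04 FPKM in KO-Gly, 6.19 FPKM in WT-Gly, 0.774 FPKM in KO-Ctrl and 1.65 FPKM in WT-Ctrl kidneys, with Ly6g listed at 0 in every WT-Gly and WT-Ctrl library and Mpo in every saline library. T and NK cell markers averaged at most 3.33 FPKM in a group (WT-Gly) and adrenal markers at most 0.948 FPKM (KO-Ctrl), with Cyp11b1 listed at 0 in WT-Gly, KO-Ctrl and WT-Ctrl kidneys and Cyp21a1 in both saline groups. The part of these cell types in the results was not tested.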
